A study of Mus musculus with 6 samples.

Results

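The ON bipolar mGluR6 signalling complex comprised 10 genes, found by symbol among the 24062 genes of a count table of whole mouse retina: Grm6, Trpm1, Gpr179, Nyx, Lrit3, Rgs7, Rgs11, Gnao1, Gng13 and Pcp2. All 10 had a row in the table and all 10 passed the filter on low counts, which kept 13905 genes. In the dark, photoreceptors release glutamate, which binds the receptor mGluR6 (the product of Grm6) on the dendrites of ON bipolar cells; mGluR6 activates the G protein Go and thereby closes the cation channel TRPM1. Light stops the release, the RGS proteins switch Go off and the channel opens, so the sign of the photoreceptor signal is inverted. In humans, mutations in several genes of this cascade cause congenital stationary night blindness without loss of photoreceptors.

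The samples were wild-type C57Bl6/J retinas (WT) and rd10 retinas, labelled with the same strain, both at postnatal day 30. Each group had 3 samples, and each sample pooled 2 frozen retinas. The rd10 allele is a missense mutation of Pde6b, the rod phosphodiesterase beta subunit, carried in the germ line; it leads to the death of rods, the input of rod bipolar cells. Nothing in the labels ties a sample to its own animals or names a batch. The p-values therefore reflect sample-to-sample spread that may in part be technical. The columns of the count table carry numbers of their own, and the libraries keep those names here: WT-1, WT-4 and WT-23 against Rd10-3, Rd10-4 and Rd10-5.

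The libraries held between 10923556 and 15818918 counts assigned to genes. Retinal markers were present, and the 10 listed rod genes all fell in rd10, with a summed level between 90047 and 105652 CPM in WT and between 18236 and 26827 CPM in rd10 (CPM, counts as a share of the TMM-scaled library size). All 6 ON bipolar markers outside the cascade (Prkca, Isl1, Car8, Sebox, Bhlhe23 and Cacna1s) were detected, with a summed level between 866 and 974 CPM in WT and between 926 and 1040 CPM in rd10. Counts of 4 Y-linked genes were 2160 in WT-4, 1663 in Rd10-3 and 1801 in Rd10-5, against 0 or 1 in WT-1, WT-23 and Rd10-4. Xist counts were 3, 2 and 7 in WT-4, Rd10-3 and Rd10-5, against 1643, 2659 and 821 in WT-1, WT-23 and Rd10-4. The libraries with Y-linked counts were thus 1 of 3 in WT and 2 of 3 in rd10. By these counts sex differed within each group and was unevenly split between the groups. Within groups, levels followed the GC content of transcripts. In the fifth of genes richest in GC, the median deviation from the group mean was 0.45 in WT-1, -0.37 in WT-23 and 0.28 in Rd10-4 on the log2 scale. In whole retina, fewer cells of a type and less RNA per cell cannot be told apart.

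In rd10 retinas, transcripts of the channel TRPM1 and of the cascade proteins GPR179 and nyctalopin made up a larger share of the counts (folds of 1.43, 1.57 and 1.46), while Lrit3 fell to 0.528 of its WT level. The transcripts of the receptor (Grm6), of the alpha and gamma subunits (Gnao1 and Gng13), of Pcp2 and of the RGS proteins (Rgs7 and Rgs11) did not pass the test. Thus 4 of the 10 genes had an adjusted p under 0.05 (edgeR quasi-likelihood test, Benjamini-Hochberg over all tested genes), 3 higher and 1 lower in rd10. Over all 13905 genes 14.4% were called, 7.12% as higher and 7.32% as lower. The median log2 fold change of the 10 genes was 0.26 against -0.04 for all genes, and 8 of the 10 values were positive, as were 46.2% over all genes. The groups did not overlap for Trpm1, Gpr179, Nyx and Gnao1, all higher in rd10, and for Lrit3, lower in rd10; over all genes 35.7% did not overlap, 17.1% lying wholly higher and 18.6% wholly lower. The count of called cascade genes changed when 1 library was left out. It was 1 (Lrit3) without WT-4, Rd10-3, Rd10-4 or Rd10-5, 4 without WT-23 and 5 without WT-1. Over all genes the count was 2008 with all libraries. It was 952, 885, 1227 and 1317 without WT-4, Rd10-3, Rd10-4 and Rd10-5, 1873 without WT-23 and 3214 without WT-1.

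**Figure D1:**
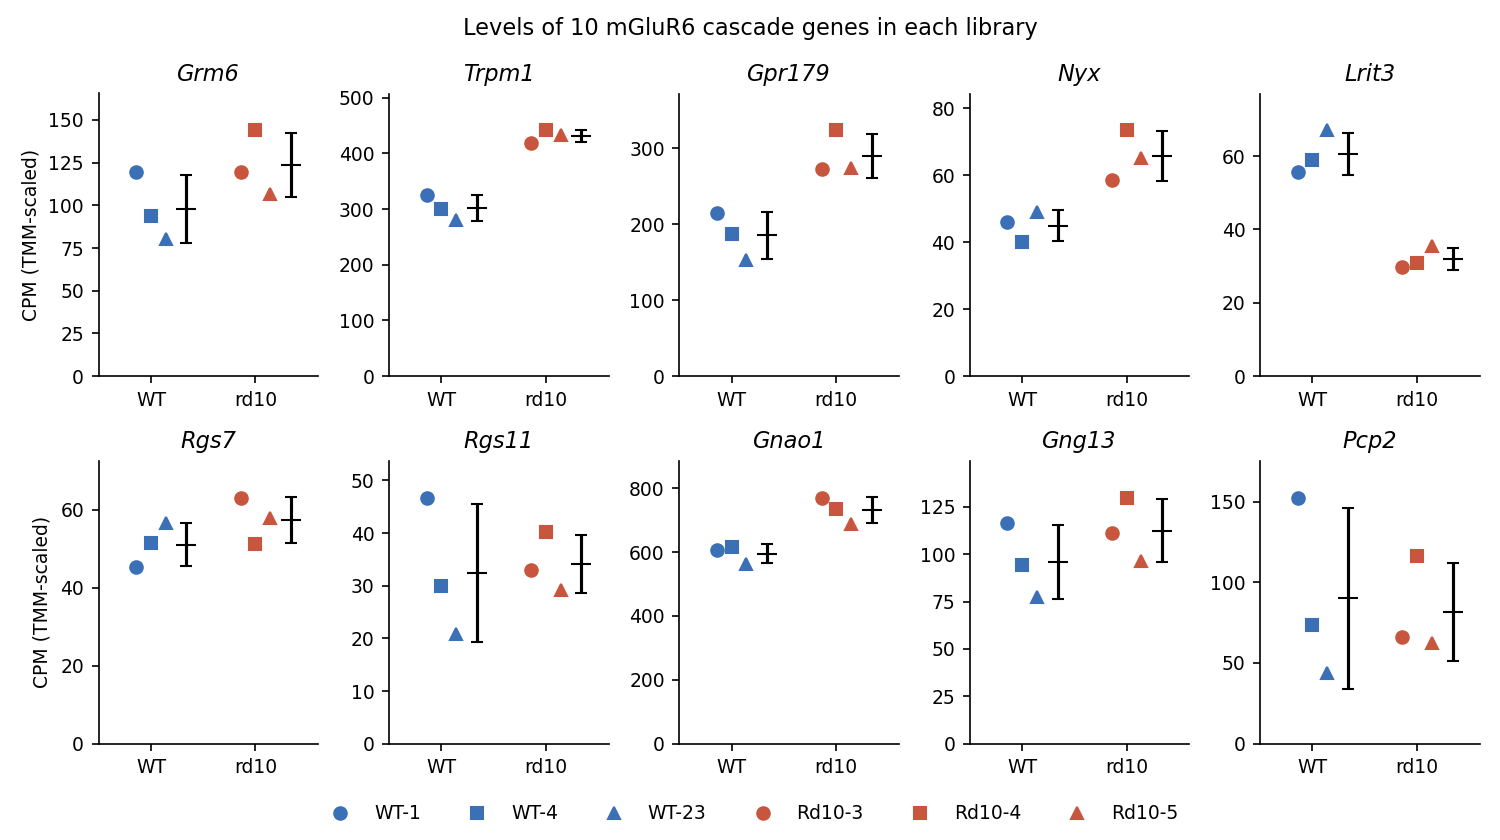
Level of each of the 10 genes in each library (vertical axes, TMM-scaled CPM from 0; points, libraries; bars, mean ± SD of 3 libraries per group). Trpm1, Gpr179, Nyx and Gnao1 show all rd10 points above all WT points and Lrit3 shows the reverse, while the groups overlap for the other genes.

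Grm6 encodes the metabotropic glutamate receptor at the head of the cascade and lies on chromosome 11 from 50850685 to 50866208 (GRCm38, the assembly that mm10 names). It was present at 119.5, 93.9 and 80.2 CPM in WT-1, WT-4 and WT-23 and at 119.6, 144 and 107 CPM in Rd10-3, Rd10-4 and Rd10-5. The groups overlapped, since WT-1 lay above Rd10-5 and next to Rd10-3. The means of 97.9 ± 20 and 123.5 ± 18.8 CPM (SD, n = 3 libraries per group) gave a log2 fold change of 0.34 ± 0.18 (SE), which missed the threshold (edgeR adjusted p = 0.244), with a 95% interval from -0.07 to 0.74. Without WT-1 the value was 0.50 and passed (adjusted p = 0.0419), as it did with a trend on GC content removed from each library (0.26, adjusted p = 0.0324) and with library size alone (0.58, adjusted p = 0.0429); with factors taken from bipolar cell markers it was 0.02. The library kit marks strand, per the labels' protocols; an antisense transcript, Gm12660, overlaps 599 of its 5421 exonic bases, but no source used here says whether the counting took strand into account.

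Trpm1 encodes the cation channel that mGluR6 signalling closes, and the authors' deposited table places it on chromosome 7 from 64153835 to 64269775. Its counts were 3989, 4304 and 4124 for WT against 5464, 5181 and 5691 for rd10, although the rd10 libraries were smaller. In CPM these were 326, 299.8 and 279.7 against 419, 441 and 433, so the lowest rd10 library stood above the highest WT library and the rd10 libraries lay close together. The log2 fold change was 0.51 ± 0.11 (SE, n = 3 per group; edgeR adjusted p = 0.0153), with a 95% interval from 0.27 to 0.76. Removing any single rd10 library, or WT-4, ended the call (adjusted p between 0.0559 and 0.0732, log2 fold changes from 0.50 to 0.53) and against a fold of 1.2 (adjusted p = 0.0662). With bipolar marker factors the value fell to 0.19 (adjusted p = 0.239).

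Gpr179 encodes an orphan receptor that holds the RGS proteins at the dendritic tips next to mGluR6; it lies on the minus strand of chromosome 11 from 97332109 to 97352077 in the authors' deposited table. Its level was 215, 187 and 154 CPM in WT-1, WT-4 and WT-23 and 273, 324 and 274 CPM in the rd10 libraries, with no overlap. The log2 fold change, the highest of the 10 genes with TMM factors, was 0.65 ± 0.15 (SE; edgeR adjusted p = 0.024), with a 95% interval from 0.31 to 0.99. With any single rd10 library or WT-4 removed the call was lost (adjusted p between 0.0559 and 0.0866), against a fold of 1.2 (0.0699) and with Y-linked counts as a covariate (0.0543), with values between 0.56 and 0.69. With bipolar marker factors it was 0.33 (adjusted p = 0.0992).

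Nyx encodes nyctalopin, a leucine-rich repeat protein on the surface of ON bipolar dendrites that is needed for TRPM1 to reach the tips. The gene is X-linked, on chromosome X from 13466110 to 13489313 in the authors' deposited table. It had 45.9, 39.9 and 48.9 CPM in WT and 58.6, 73.3 and 65 CPM in rd10, so all rd10 values exceeded all WT values. The log2 fold change was 0.55 ± 0.14 (SE, n = 3 per group; edgeR adjusted p = 0.0322), with a 95% interval from 0.24 to 0.86. With Y-linked counts as a covariate it was 0.65 (adjusted p = 0.0253), and within each group the library or libraries without Y-linked counts included the highest value, WT-23 and Rd10-4. The gene was not called once WT-4 or any single rd10 library was removed (adjusted p between 0.0695 and 0.145), against a fold of 1.2 (0.102) and with bipolar marker factors (0.22, adjusted p = 0.292).

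Lrit3 encodes another leucine-rich repeat membrane protein, required for nyctalopin and TRPM1 at the synapse; in mouse, rods express it and it acts across the synaptic cleft. It lies on the minus strand of chromosome 3 from 129787881 to 129804030 in the authors' deposited table. Its level was 55.8, 58.9 and 67 CPM in WT and 29.6, 30.9 and 35.5 CPM in rd10, so the highest rd10 library was below the lowest WT library. The log2 fold change was -0.92 ± 0.13 (SE, n = 3 per group; edgeR adjusted p = 0.00335), with a 95% interval from -1.22 to -0.62. The gene was called under each of 19 alternatives, with values from -1.25 with bipolar marker factors to -0.68 with library size alone. Rod genes fell in the same libraries (10 of 10, median -2.09), and the part of rods in the fall of Lrit3 was not tested. Nyx and Lrit3 changed places: Nyx minus Lrit3, on log2 CPM, was -0.28, -0.56 and -0.45 in WT, then 0.98, 1.24 and 0.87 in rd10. The difference between the groups was 1.46 (exact two-sided permutation test, p = 0.1, the smallest that 3 against 3 allows, and 0.2 adjusted over 8 pairs chosen after the values were seen).

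A promoter window of each called gene, the first listed, is shown. Of these genes 3 rose and 1, Lrit3, which rods express in mouse, fell. A link between promoter sequence and these changes was not tested. The windows are RefSeq's (GRCm38.p6), 250 bases before to 50 after an annotated start, read 5′ to 3′ on the gene's strand. Capitals mark TAATCC or its reverse complement GGATTA, the core bound by the homeodomain factors OTX2 and CRX, searched on both strands.
Trpm1, chr7:64153585-64153884, plus strand: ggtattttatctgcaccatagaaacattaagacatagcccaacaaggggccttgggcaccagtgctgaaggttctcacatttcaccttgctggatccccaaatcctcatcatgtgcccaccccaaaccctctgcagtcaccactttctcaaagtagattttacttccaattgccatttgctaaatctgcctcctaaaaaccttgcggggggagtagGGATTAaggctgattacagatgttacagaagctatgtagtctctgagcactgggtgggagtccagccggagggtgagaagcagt
Gpr179, chr11:97352307-97352606, minus strand: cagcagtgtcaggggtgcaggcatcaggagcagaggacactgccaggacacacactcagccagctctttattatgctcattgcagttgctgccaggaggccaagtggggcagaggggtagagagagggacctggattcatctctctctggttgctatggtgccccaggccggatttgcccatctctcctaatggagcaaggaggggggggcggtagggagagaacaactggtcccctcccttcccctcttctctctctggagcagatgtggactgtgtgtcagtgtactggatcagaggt
Nyx, chrX:13460840-13461139, plus strand: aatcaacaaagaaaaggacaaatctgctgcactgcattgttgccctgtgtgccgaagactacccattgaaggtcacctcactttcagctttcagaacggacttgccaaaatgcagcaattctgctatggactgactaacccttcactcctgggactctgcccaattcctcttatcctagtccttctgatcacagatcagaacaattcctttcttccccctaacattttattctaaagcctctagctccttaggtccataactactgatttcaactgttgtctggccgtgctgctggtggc
Lrit3, chr3:129804087-129804386, minus strand: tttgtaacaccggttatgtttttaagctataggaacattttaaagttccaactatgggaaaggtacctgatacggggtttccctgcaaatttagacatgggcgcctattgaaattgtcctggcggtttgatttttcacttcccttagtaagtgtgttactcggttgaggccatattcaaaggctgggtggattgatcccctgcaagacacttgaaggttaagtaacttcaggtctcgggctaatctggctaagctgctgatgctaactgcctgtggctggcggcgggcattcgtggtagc
Of these 4 windows, that of Trpm1 held TAATCC, on the opposite strand, starting 34 bases before the start. The windows of Nyx, Gpr179 and Lrit3 lie wholly upstream of the gene spans given above, so the annotations place these starts differently. The gap is widest for Nyx, whose window ends at 13461139 against a gene start at 13466110. The table lists another Trpm1 start, downstream within the gene (chr7:64185209-64185508), whose window held no TAATCC and is not printed. Of all 32851 RefSeq windows, 7.06% held TAATCC on either strand. Of the 14 windows of the 9 cascade genes that the table lists, 1 held TAATCC.

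The alpha and gamma subunits, Gnao1 and Gng13, and the regulators Pcp2, Rgs7 and Rgs11 did not pass the test. Gnao1, the alpha subunit of Go and a gene of neurons in general, lies on chromosome 8 from 93809966 to 93969388 in the authors' deposited table. Its level was 606, 616 and 562 CPM in WT and 770, 736 and 688 CPM in rd10, again without overlap. The log2 fold change was 0.30 ± 0.10 (SE, n = 3 per group; edgeR adjusted p = 0.0995), with a 95% interval from 0.06 to 0.54; it passed with upper quartile factors (0.39, adjusted p = 0.0476), with library size alone (0.54, 0.0115) and with the GC trend removed (0.25, 0.0357), and was -0.03 with bipolar marker factors. All 7 amacrine markers, genes of another class of neuron that expresses Gnao1, had positive values as well, from 0.07 to 0.44, with none called (adjusted p under 0.05) and a summed level between 1072 and 1216 CPM in WT and between 1271 and 1423 CPM in rd10; their part in the value of Gnao1 was not tested.

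Gng13, the gamma subunit that pairs with Go in ON bipolar cells, is a short gene on chromosome 17 from 25717171 to 25719406 (GRCm38). It had 116, 94 and 77.4 CPM in WT and 111, 130 and 96.4 CPM in rd10, and the groups overlapped (log2 fold change 0.23 ± 0.18, 95% interval -0.18 to 0.64, edgeR adjusted p = 0.427, n = 3 per group). Chtf18 overlaps 399 of its 773 exonic bases on the other strand and had 33 counts or fewer in any library, against at least 1141 for Gng13. Pcp2, a GoLoco protein of rod bipolar cells that acts on the alpha subunit, lies on the minus strand of chromosome 8 from 3623371 to 3625545 (GRCm38). It varied most within the groups, with counts of 1863, 1059 and 646 in WT-1, WT-4 and WT-23 against 865, 1368 and 817 for rd10. WT-1 alone had 152 CPM, and the other libraries ran from 43.8 to 117 CPM. The log2 fold change was -0.14 ± 0.43 (95% interval -1.13 to 0.86, edgeR adjusted p = 0.86); without WT-1 it was 0.47 (adjusted p = 0.263). Pet100 overlaps 941 of its 1828 exonic bases on the other strand and had between 119 and 220 counts.

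Rgs7 and Rgs11 encode the GTPase-activating proteins that turn Go off and that GPR179 anchors. Rgs7, on the minus strand of chromosome 1 from 175059087 to 175492500 (GRCm38), had 45.4, 51.4 and 56.6 CPM in WT and 63.1, 51.4 and 58 CPM in rd10. The groups overlapped, and the log2 fold change was 0.17 ± 0.13 (95% interval -0.14 to 0.48, edgeR adjusted p = 0.441, n = 3 per group). Rgs11, on chromosome 17 from 26202951 to 26211324 (GRCm38), had 46.7, 29.9 and 20.8 CPM in WT and 33, 40.2 and 29.2 CPM in rd10. All rd10 values lay between the highest and lowest WT library, and the log2 fold change was 0.07 ± 0.28 (95% interval -0.57 to 0.71, edgeR adjusted p = 0.884), turning to -0.14 without WT-23 and -0.06 without Rd10-4. Arhgdig overlaps 138 of its 4206 exonic bases on the other strand and had between 80 and 241 counts, against 307 to 571 for Rgs11. Within libraries the ratio of the RGS genes moved with the library: Rgs7 minus Rgs11 on log2 CPM ran from -0.04 in WT-1 to 1.43 in WT-23. The group means of that difference, 0.72 ± 0.74 and 0.76 ± 0.35 (SD, n = 3), differed by 0.03 (exact permutation p = 1).

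**Figure D2:**
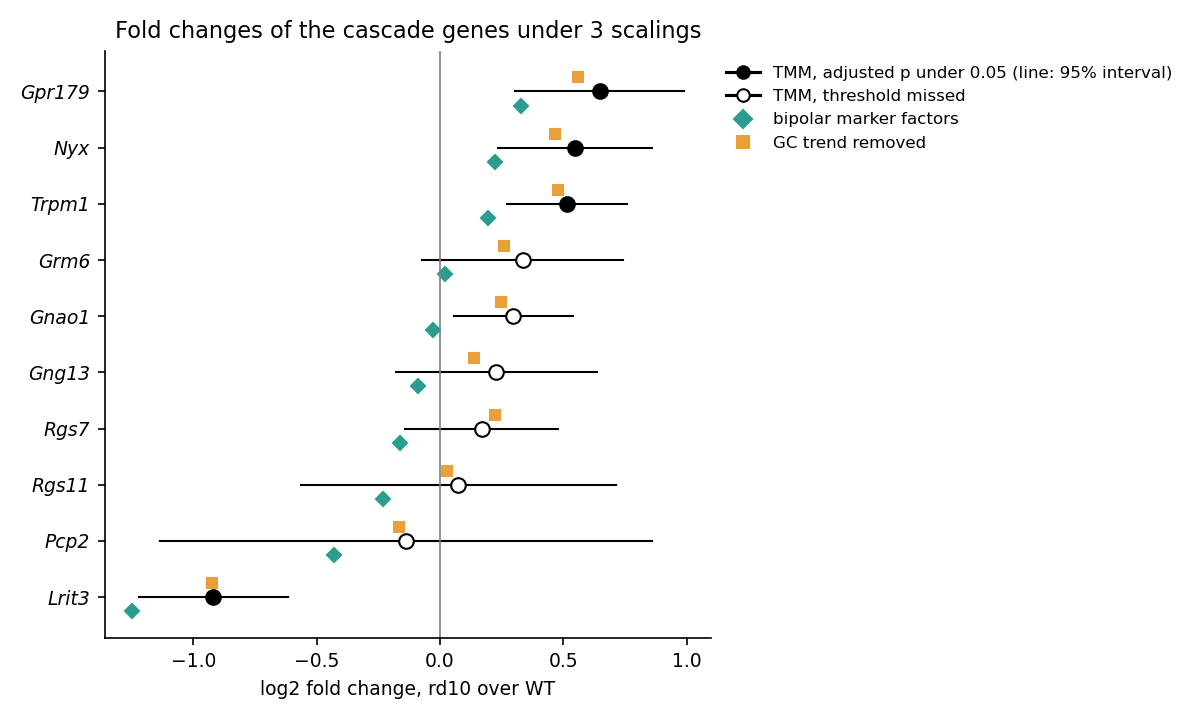
Log2 fold change of rd10 over WT for each gene (horizontal axis; circles, TMM factors, filled where the adjusted p is under 0.05; lines, 95% intervals; diamonds, factors from bipolar markers; squares, GC trend removed). Lrit3 lies near -0.92 with TMM factors and GC removal and at -1.25 with bipolar marker factors. Bipolar marker factors move every gene to the left, as they do the median of all tested genes (from -0.04 to -0.36). Trpm1, Nyx and Gpr179 then lie at 0.19, 0.22 and 0.33.

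CPM are shares of a library, and rod genes took a smaller share in rd10; each gene was therefore also read against 18 markers of bipolar cells outside the cascade within the same library. The mean log2 CPM of those markers was itself 0.32 higher in rd10. Against it, Gpr179 stood 2.08, 2.04 and 1.80 above the markers in WT and 2.21, 2.43 and 2.30 in rd10, a difference of 0.34 ± 0.11 (SE, n = 3 per group). Trpm1 went from 2.69, 2.71 and 2.66 to 2.83, 2.88 and 2.96, a difference of 0.20 ± 0.04. For both genes each rd10 library was above each WT library. Lrit3 went from 0.14, 0.37 and 0.60 above the markers to 0.99, 0.95 and 0.65 below them, a difference of -1.23 ± 0.17. Rods express Lrit3 in mouse, so the markers are not genes of its own cells, and their rise of 0.32 adds to its fall. Gpr179, Trpm1 and Lrit3 had an exact two-sided permutation p = 0.1, the smallest possible, and 0.333 adjusted over the 10 genes. Nyx was 0.23 ± 0.14 higher relative to the markers, with overlapping groups (exact p = 0.2). The differences of Grm6 (0.03 ± 0.15), Gnao1 (-0.02 ± 0.06), Gng13 (-0.08 ± 0.15), Rgs7 (-0.15 ± 0.18), Rgs11 (-0.18 ± 0.30) and Pcp2 (-0.33 ± 0.53) were about their own standard errors or less (SE; exact permutation p between 0.4 and 0.8). Gpr179 minus Grm6, both on chromosome 11, was 0.85, 1.00 and 0.94 in WT and 1.19, 1.17 and 1.36 in rd10, a difference of 0.31 with no overlap (exact p = 0.1, 0.2 adjusted over the 8 pairs).

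For part of the cascade, the spread within groups went with the GC content of the transcripts. The cascade genes with over 54% GC were Grm6 (54.9%), Pcp2 (55.9%), Gpr179 (57.1%), Rgs11 (57.7%) and Gng13 (59.2%). For all 5, WT-1 was the highest and WT-23 the lowest WT library, and Rd10-4 was the highest rd10 library. Nyx, just below them at 53.8%, differed: its highest WT library was WT-23 (0.13, against 0.04 in WT-1), though Rd10-4 was its highest rd10 library (0.17). The dividing value of 54% was chosen after the values were seen. Pcp2 deviated from its group mean by 0.95 in WT-1, -0.85 in WT-23 and 0.57 in Rd10-4 on the log2 scale. In the fifth of genes that holds Pcp2, next below the richest in GC, the medians were 0.17, -0.15 and 0.11. The deviations of Pcp2 were also larger in size than the medians of the fifth of genes richest in GC. Rgs7, the poorest in GC of the 10 (44.8%), had the opposite order, with -0.17 in WT-1, 0.15 in WT-23 and -0.16 in Rd10-4. With the trend removed, 6 of the 10 genes passed, with Grm6 and Gnao1 added to the 4. In that fit 4665 genes in all were called, against 2008 without the correction. The trend was estimated from these same libraries, both groups together, and then taken as known. The standard errors of that fit therefore leave out its uncertainty. The standard error of Grm6 fell from 0.18 to 0.08, that of Rgs11 from 0.28 to 0.12, and that of Pcp2 only from 0.43 to 0.34.

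**Figure D3:**
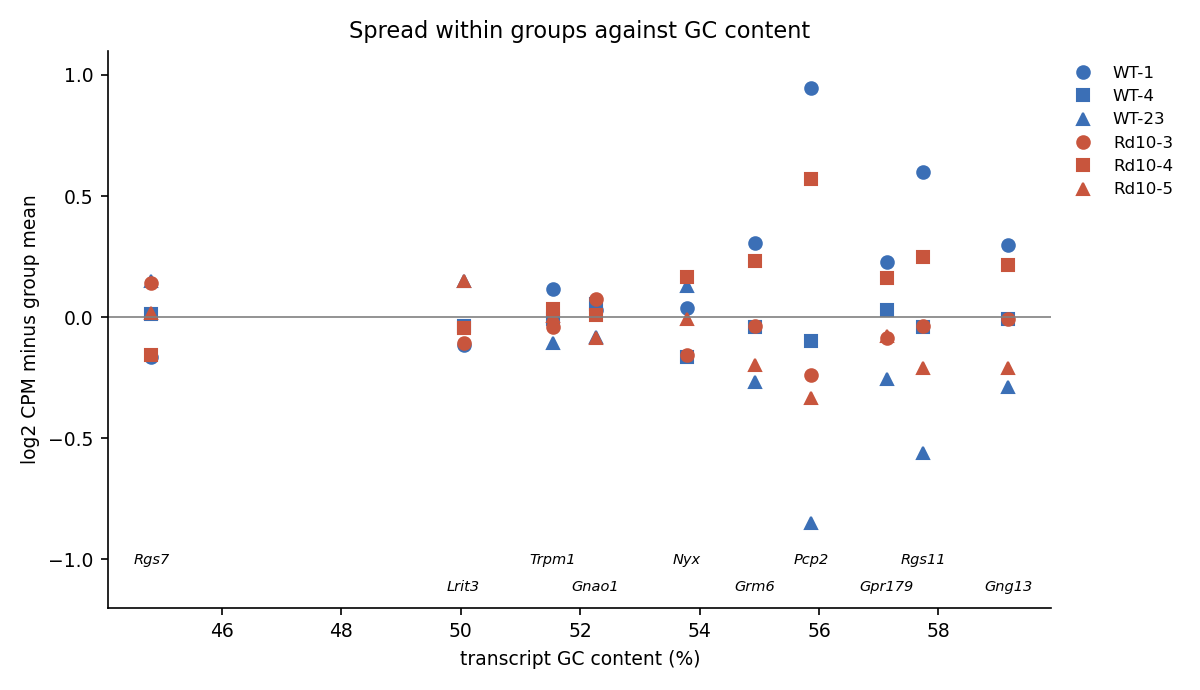
Deviation of each library from its group mean on log2 CPM (vertical axis) against the GC content of the transcripts of each of the 10 genes (horizontal axis, percent; blue, WT; red, rd10). WT-1 and Rd10-4 lie above 0 for the 5 genes over 54% GC, with Pcp2 reaching 0.95 in WT-1, and below 0 for Rgs7 and Lrit3.

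Per kilobase of merged exons, the WT level was 124 ± 25 CPM for Gng13, 53.8 ± 2.6 for Gnao1 and 49.2 ± 30.7 for Pcp2, the last with a spread that covers the level of Gnao1. Lrit3 (22.1 ± 2.1), Trpm1 (20.5 ± 1.6), Gpr179 (19.4 ± 3.2) and Grm6 (18.1 ± 3.7) followed, and neighbours in that order differed by less than the larger of their SDs. Nyx (8.66 ± 0.88), Rgs7 (8.49 ± 0.93) and Rgs11 (7.72 ± 3.12) were the lowest and were not separated either (CPM per kilobase, SD, n = 3). In rd10 Lrit3 dropped from the group of Trpm1 and Grm6 to 11.7 ± 1.1, next to Nyx at 12.7 ± 1.4. The order depends on the length taken, since merged exons of all annotated transcripts come to 14.7 kilobases for Trpm1. In the authors' deposited table, the FPKM in WT and rd10 was 98.1 and 120.5 for Gnao1, 90.4 and 129.1 for Trpm1, 47.4 and 74.1 for Gpr179, 14 and 7.4 for Lrit3 and 9.2 and 13.3 for Nyx. These were 5 of the 10 genes, and the authors' deposited table gives them log2 fold changes of 0.30, 0.51, 0.65, -0.92 and 0.55. Nyx was also in the smaller of the authors' deposited tables. The larger holds 3427 genes and the smaller 293, and both names give a selection on p-value, fold and FPKM. That selection differs from the adjusted p threshold used here, which Gnao1 missed.

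The genes with profiles most alike over the 6 libraries were sought over the 9503 genes that averaged 10 CPM or more, by the root mean square distance of centred log2 CPM. Nearest to Grm6 were Myl12a (0.025), Crmp1 (0.028) and Pnmal2 (0.03). Nearest to Trpm1 were Npc2 (0.043), Lynx1 (0.044) and Lamc1 (0.046), and nearest to Lrit3 were Mrpl49 (0.055), Stk35 (0.058) and Ppp2r2b (0.059). Within a distance of 0.1 lay 205 genes for Grm6, 118 for Trpm1 and 37 for Lrit3.

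Of 7 other postsynaptic partners, 1 rose and 2 fell, with a median log2 fold change of 0.12. Gnb3, the beta subunit that Go uses in ON bipolar cells and that cones use as well, had 415, 337 and 198 CPM in WT and 576, 740 and 573 CPM in rd10, without overlap. Its log2 fold change was 0.99 ± 0.25 (SE; edgeR adjusted p = 0.0368). The call did not survive the removal of any single rd10 library or of WT-4 (adjusted p between 0.0698 and 0.106). Cone markers, with 4 of 8 called as higher, had a summed level between 1612 and 2081 CPM in WT and between 2070 and 2153 CPM in rd10, and their part in the rise of Gnb3 was not tested. Gnb5, the beta subunit bound by RGS7 and RGS11 and, in rods, by RGS9, fell from 979, 811 and 799 CPM to 352, 437 and 434 CPM (-1.08 ± 0.14, adjusted p = 0.00204). Rgs9bp, which anchors RGS9 in photoreceptors and RGS11 in bipolar cells, fell from 553, 613 and 858 CPM to 162, 168 and 239 CPM (-1.83 ± 0.22, adjusted p = 0.0015). Rods use both genes, and the part of rods in these falls was not tested. Prkca, the kinase of rod bipolar cells, had a log2 fold change near 0 (0.0031), with 523, 619 and 598 CPM in WT and 600, 527 and 617 CPM in rd10.

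On the presynaptic side 9 of 14 genes fell and 1, Dag1, rose, with a median of -0.69. Rod genes fell in the same libraries (10 of 10, median -2.09), and the part of rods in these falls was not tested. Counts of whole retina do not place the rise of Dag1 in photoreceptor terminals. Egflam encodes pikachurin, a matrix protein of the ribbon synapse that binds GPR179; it had 482, 488 and 440 CPM in WT and 178, 217 and 224 CPM in rd10. Cabp4, a calcium-binding protein of the photoreceptor terminal, had 239, 171 and 159 CPM in WT and 42.4, 62.1 and 57.4 CPM in rd10. Elfn1, the rod adhesion protein that binds mGluR6 across the cleft, had 67.6, 46.9 and 42.8 CPM in WT and 19.1, 29.5 and 26.2 CPM in rd10; its call was lost without Rd10-3 (adjusted p = 0.0706). Dag1, the receptor of pikachurin, had a value of 0.47 (edgeR adjusted p = 0.038), lost without each library but WT-1 (adjusted p between 0.0643 and 0.141). Slc17a7, the vesicular glutamate transporter, and Cacna1f, the calcium channel of the terminal, were each no longer called when WT-4, or Rd10-3, or else Rd10-5 was left out (adjusted p between 0.0505 and 0.105). Thus Gpr179 rose while Egflam fell, and Grm6 missed the threshold while Elfn1 fell; a difference within these pairs was not tested.

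Among 16 paralogues of the cascade genes, Rgs6 was called as higher and 5 genes as lower, with a median of 0.16. Of these, Lrit1 and Lrit2 were counted among the presynaptic genes too, and Gpr158, not called, among the postsynaptic partners. Rgs6 (0.49, edgeR adjusted p = 0.0343) had 39.7, 42 and 41.8 CPM in WT and 60.1, 50.8 and 62 CPM in rd10, and was no longer called when WT-4, or Rd10-3, or else Rd10-5 was left out (adjusted p between 0.12 and 0.155). Rgs9, the photoreceptor counterpart of Rgs7 and Rgs11, was lower, with 2226, 2581 and 2873 CPM in WT and 1109, 1064 and 1546 CPM in rd10. The others that fell were Gngt1, the rod gamma subunit, Gpsm2, and the relatives of Lrit3, Lrit1 and Lrit2. Lrit1 lost its call without WT-4 or Rd10-3 (adjusted p between 0.0681 and 0.0763).

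Of 5 transmitter receptor genes of bipolar cells (Gabrr1 and Gabrr2 for GABA, Glra1 for glycine, Grik1 and Gria2 for glutamate), Grik1 alone was called, as higher, with a list median of 0.30. Its value of 0.55 (edgeR adjusted p = 0.0182) missed the threshold when WT-4, or Rd10-3, or else Rd10-5 was left out (0.0639 to 0.108). In 14 genes of human congenital stationary night blindness, 4 of them higher and 9 lower, the median was -0.84; this list shares genes with the cascade and with rod lists. ON bipolar, pan-bipolar and OFF bipolar markers had medians of 0.28 each, with 1 of 6, 1 of 6 and 2 of 6 called as higher and none as lower. The calls did not hold when some single libraries were left out. Isl1 (ON) was lost without each library but WT-1 (adjusted p between 0.0638 and 0.211, log2 fold changes from 0.35 to 0.54). Cabp5 (pan-bipolar) was lost without WT-4 or Rd10-3 (0.0527 and 0.058). The OFF calls were Grik1, given above, and Fezf1, which lay between 0.488 and 2.13 CPM and was lost without each library but WT-1 (0.057 to 0.113). Without WT-4 or without Rd10-3, none of these 4 genes was called (edgeR). Microglial markers (6 of 6 higher, median 1.88) and Müller cell markers (4 of 6 higher, 0.71) moved in the same libraries. Ganglion cell and horizontal cell markers had no call (edgeR, adjusted p under 0.05), with medians of 0.17 and -0.02.

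**Figure D4:**
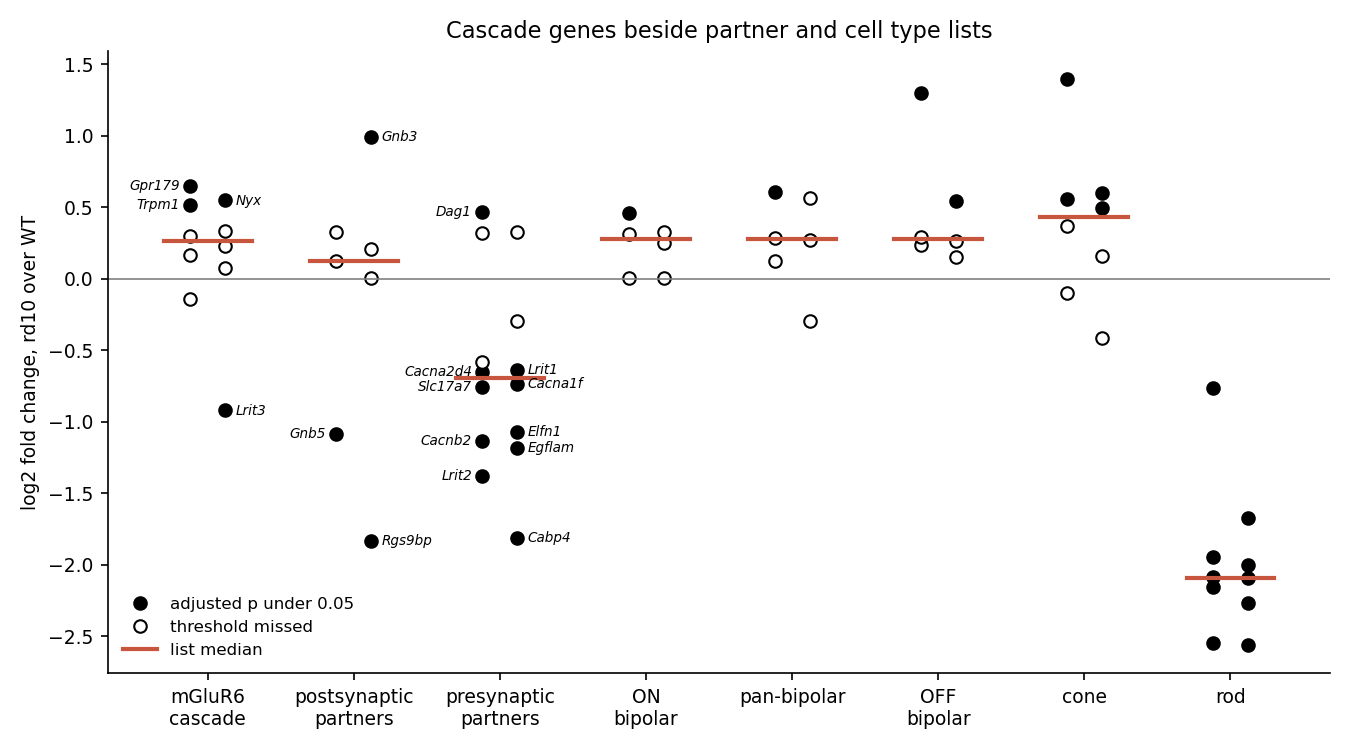
Log2 fold change of rd10 over WT for each gene of the lists (vertical axis; points, genes; filled, adjusted p under 0.05; bars, list medians). The 10 cascade genes have a median of 0.26 with Lrit3 apart at -0.92, the presynaptic genes a median of -0.69 and the bipolar marker lists medians of 0.28.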

How the data were processed

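Whole-retina RNA was sequenced from 3 WT and 3 rd10 samples. The submitters' processing notes list TopHat2 2.1.0, HTSeq, edgeR and the build mm10; no source used here gives the annotation or the strand setting of the counting. The authors deposited raw counts per gene. The authors' deposited tables also hold FPKM, log2 fold changes and p-values, of 3427 and 293 genes. From the counts, edgeR 4.0.16 (R 4.3.3; filterByExpr, TMM factors, robust quasi-likelihood test, Benjamini-Hochberg threshold 0.05) was fitted over 13905 genes. log2 CPM used a prior count of 2. The groups were also compared within libraries against 18 bipolar markers by exact two-sided permutation tests. GC content, exon lengths and overlaps came from GENCODE M21, to which 98.4% of genes matched. Alternatives were DESeq2 1.42.0, limma voom 3.58.1, other factors, filters, a GC correction, a Y-linked covariate and leaving out each library. The cascade genes and all lists were chosen with earlier results of these data known. The genes named were the cascade, the genes of the lists and the 3 nearest profiles. The fit was tested on simulated data. Depth was 10923556 to 15818918 counts per library.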

Additional observations from a re-analysis of the deposited data

How the results depend on the processing

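No paired analysis was possible because the columns of the count table carry numbers that the groups do not share in a way the labels explain. The count of called genes, 2008 of which 49.3% were higher, was 3043 with library size alone (81.2% higher), 4431 with bipolar marker factors (13.6%), 1285 against a fold of 1.2, 4665 with the GC trend removed and 1312 with Y-linked counts as a covariate; upper quartile factors gave 63.3% higher. Leaving out 1 library gave 885 (without Rd10-3) to 3214 (without WT-1). The median of all genes moved from -0.04 to 0.20 with library size alone and -0.36 with bipolar marker factors. Cascade genes called were 1 with bipolar marker factors and 1 against a fold of 1.2, and 1 to 5 on leaving out a library. Signs turned with bipolar marker factors for Rgs7 (-0.16), Rgs11 (-0.23), Gnao1 (-0.028) and Gng13 (-0.088); for Rgs11 leaving out a library gave -0.14 to 0.43. Pcp2 was 0.11 with library size alone, 0.062 with the Y-linked covariate, 0.13 without WT-1 and Rd10-4 (chosen after seeing the data), and -0.49 to 0.47 on leaving out a library, with 0.02 without Rd10-5. Relative to bipolar markers, leaving out a library gave -0.068 to 0.123 for Grm6, -0.418 to 0.063 for Rgs11, -0.062 to 0.025 for Gnao1, -0.182 to 0.013 for Gng13 and -0.71 to 0.088 for Pcp2. The same marker mean is subtracted from every gene. Taking ON markers alone in place of all 18 therefore raised every difference between the groups by the same amount. With ON markers alone, rd10 minus WT was 0.43 for Gpr179, 0.32 for Nyx, 0.29 for Trpm1 and 0.11 for Grm6. It was 0.068 for Gnao1 and 0.00801 for Gng13. The difference was negative for Rgs7 (-0.06), Rgs11 (-0.09), Pcp2 (-0.24) and Lrit3 (-1.15). Of 190 cascade values, 154 kept direction and side of the threshold, 19 lost the call, 6 gained it and 11 turned. Precision is limited by 3 libraries per group.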
